A study of Mus musculus with 2 samples.

Results

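The genes that license replication origins, build the replication fork and supply it with nucleotides were examined in mouse iTreg cells, which are regulatory T cells induced in culture. The set holds 50 genes, picked by symbol for their place in this machinery, of the 23282 rows (23238 distinct symbols) of the expression tables. Both cultures were wild-type naïve CD4+ T cells from spleens of C57BL/6 females aged 7 to 10 weeks, activated through plate-bound anti-CD3ε with soluble anti-CD28 and given IL-2, TGF-β1, anti-IFN-γ (XMG1.2) and anti-IL-4 (11B11) for 1 day. The Control culture received the solvent DMSO and the other culture 10 μM Tubastatin A, an inhibitor of the tubulin deacetylase HDAC6 that is abbreviated TSA (not trichostatin A). One library was sequenced from each, so nothing that separates Control from TSA-treated Treg cells below has a replicate check, and an effect of TSA cannot be told apart from a difference between 2 cultures or 2 library preparations.

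Before S phase, the origin recognition complex (ORC) marks origins, and CDC6 and CDT1 load the MCM2-7 ring there as an inactive helicase. CDC45 and GINS then join the ring to form the active helicase, polymerase α-primase starts each strand, and polymerases δ and ε extend it while held by the PCNA clamp, which RFC loads. Ribonucleotide reductase, thymidylate synthase and thymidine kinase make the DNA precursors. Naïve T cells rest outside the cycle and switch these genes on, largely through E2F factors, when they are activated and enter their first divisions.

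The tables hold log2 of a normalized count plus 1, from which the reads of each gene could be recovered, 10846166 for Control and 10432628 for TSA. A change is the TSA value minus the Control value on that log2 scale, and a fold is TSA over Control. A gene was called when its change passed 2-fold, and 12164 genes entered the comparison because either library held 10 reads or more. These are called the genes tested, although no p-value was computed. Intervals are exact 95% Clopper-Pearson intervals of the fold from the reads. They compare these 2 libraries and cover counting error only, since PCR copies could not be told apart. Genes whose change did not pass 2-fold are described as lower or higher with their values, and "fell" is kept for those that did. All 50 genes of the set passed the filter, their lowest mean normalized count was 122, and they had 89 to 11843 reads in a library.

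Of the 50 replication genes, 48 had a lower value in the TSA library and 2, Pole2 and Rpa3, a higher one. The median change was -0.285, against 0.015 over all genes tested, of which 48.6% were lower. Among the 8188 genes whose normalized count averaged 100 or more, called well-read genes here, which all 50 belong to, the median change was -0.058 and 57.1% were lower. The reads of the set summed to 100880 for Control and 80017 for TSA, or 9301 and 7670 CPM (reads scaled by the library's total). On the deposited scaling, which lies 0.070 lower on the log2 scale than scaling by total reads, the fold of the sum was 0.785 (0.778 to 0.793). For 43 of the 50 genes the whole interval of the fold lay below 1, which held for 28% of all genes tested and for 36.5% of the well-read genes. For none did it lie above 1, which held for 28.1% of all genes tested and 23.4% of the well-read genes. In bulk RNA, fewer cells in S phase and less of these transcripts per cell cannot be told apart.

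Most of these differences were small. Passing 2-fold were 3 genes, Rrm2, Mcm8 and Clspn, all lower. Scaled by total reads only Rrm2 did so, with or without Rn45s, and by the upper quartile Rrm2 and Mcm8. By comparison, 3.15% of all genes tested and 1.31% of the well-read genes were lower by more than 2-fold. A rise past 2-fold was seen in 0 members, against 11.5% of all genes tested but 1.48% of the well-read genes, so that 0 of 50 is near the share of the latter. At a threshold of 1.5-fold, 9 members (18%) were lower, adding Tyms, Rrm1, Mcm10, Tk1, Lig1 and Prim2, where 8.34% of all genes tested and 5.9% of the well-read genes were lower by as much. Scaled by total reads, Lig1 and Prim2 no longer passed and 7 members did, and by the upper quartile Prim2 no longer passed and 8 did, counts added after seeing the data. None was higher by more than 1.5-fold, against 18.7% of all genes tested and 6.05% of the well-read genes. Of the 50 genes, 9 were among the lowest 5% of the well-read genes, 26 were among the lowest 25%, and 47 were in the lower 50%. Across the 50 genes the change and the mean level had a Pearson r of -0.0027 and a Spearman rho of 0.018, a description of genes that share both libraries.

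**Figure D1:**
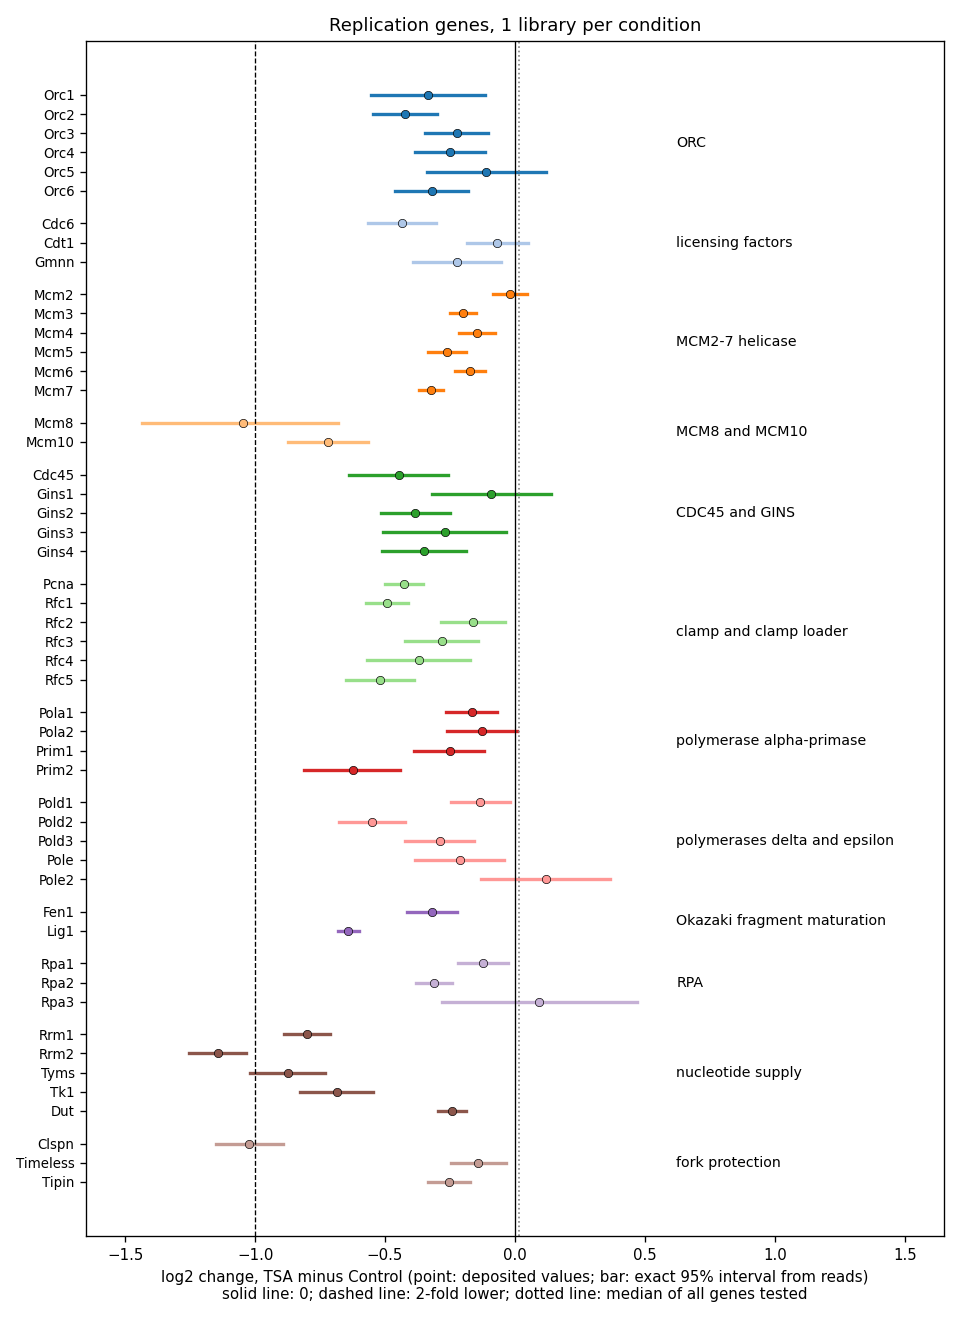
Change of each of the 50 replication genes on the x axis (log2, TSA minus Control), grouped by role on the y axis, with points from the deposited values and bars for the exact 95% interval from reads. Points of 48 genes lie left of 0 and those of Rrm2, Mcm8 and Clspn left of the dashed line at 2-fold lower, while the dotted line marks the median of all genes tested, 0.015.

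The promoters of the 6 genes with the lowest change and of Pole2, the gene with the highest, are shown because these genes mark both ends of the range. Each is the RefSeq window (GRCm38.p6) from 250 bases before to 50 bases after the annotated start, on the strand of the gene. Capitals mark 2 motifs searched on both strands. One is the E2F-type motif, any of TTTCCCGC, TTTCGCGC, TTTGCCGC and TTTGGCGC, and the other is CCAAT, the core bound by NF-Y. The windows lie at chr12:24708004-24708303, plus strand (Rrm2), chr2:132815891-132816190, plus strand (Mcm8), chr4:126556730-126557029, plus strand (Clspn), chr5:30073576-30073875, minus strand (Tyms), chr7:102441445-102441744, plus strand (Rrm1), chr2:5012742-5013041, minus strand (Mcm10) and chr12:69228141-69228440, minus strand (Pole2).
Rrm2: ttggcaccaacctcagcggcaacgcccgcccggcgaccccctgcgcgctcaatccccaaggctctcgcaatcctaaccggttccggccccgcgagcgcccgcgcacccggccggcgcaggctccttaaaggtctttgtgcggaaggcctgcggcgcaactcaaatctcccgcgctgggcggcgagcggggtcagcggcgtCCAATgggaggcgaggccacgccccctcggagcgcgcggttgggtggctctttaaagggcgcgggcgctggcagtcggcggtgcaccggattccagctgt
Mcm8: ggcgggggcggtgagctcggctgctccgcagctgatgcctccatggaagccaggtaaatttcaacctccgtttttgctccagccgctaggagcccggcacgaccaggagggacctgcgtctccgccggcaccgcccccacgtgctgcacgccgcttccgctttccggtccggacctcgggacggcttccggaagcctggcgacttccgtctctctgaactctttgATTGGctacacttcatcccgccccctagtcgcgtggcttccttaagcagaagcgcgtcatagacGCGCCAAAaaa
Clspn: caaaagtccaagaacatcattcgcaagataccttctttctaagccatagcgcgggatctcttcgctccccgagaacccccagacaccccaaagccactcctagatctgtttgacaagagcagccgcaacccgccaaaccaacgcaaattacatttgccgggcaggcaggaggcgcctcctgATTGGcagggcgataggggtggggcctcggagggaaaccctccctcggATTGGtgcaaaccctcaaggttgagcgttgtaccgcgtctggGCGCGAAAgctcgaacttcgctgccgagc
Tyms: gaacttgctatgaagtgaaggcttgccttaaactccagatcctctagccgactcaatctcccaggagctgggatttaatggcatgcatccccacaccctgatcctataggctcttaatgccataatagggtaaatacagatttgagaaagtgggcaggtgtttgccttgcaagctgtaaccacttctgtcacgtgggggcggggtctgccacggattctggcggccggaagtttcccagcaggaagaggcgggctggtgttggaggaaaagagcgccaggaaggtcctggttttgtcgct
Rrm1: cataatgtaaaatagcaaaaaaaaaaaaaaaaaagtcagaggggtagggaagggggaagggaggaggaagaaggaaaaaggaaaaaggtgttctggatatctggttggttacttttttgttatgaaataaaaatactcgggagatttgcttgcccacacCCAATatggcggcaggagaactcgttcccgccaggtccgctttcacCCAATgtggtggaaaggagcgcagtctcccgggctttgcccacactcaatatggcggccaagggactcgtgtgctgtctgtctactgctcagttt
Mcm10: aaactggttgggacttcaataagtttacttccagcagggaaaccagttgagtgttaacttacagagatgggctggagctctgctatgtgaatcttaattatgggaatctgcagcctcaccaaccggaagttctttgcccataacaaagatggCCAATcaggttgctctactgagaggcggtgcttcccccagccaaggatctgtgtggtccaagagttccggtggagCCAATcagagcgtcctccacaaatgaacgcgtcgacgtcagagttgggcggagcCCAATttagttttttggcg
Pole2: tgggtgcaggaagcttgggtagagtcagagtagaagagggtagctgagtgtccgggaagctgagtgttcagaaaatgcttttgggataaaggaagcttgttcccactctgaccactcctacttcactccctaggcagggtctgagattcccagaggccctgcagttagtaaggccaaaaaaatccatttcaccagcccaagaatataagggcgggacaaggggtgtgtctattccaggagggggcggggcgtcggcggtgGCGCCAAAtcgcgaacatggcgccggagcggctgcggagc
Mcm8 and Clspn held 1 E2F-type match each, downstream of the start, with CCAAT upstream. Rrm2 held 1 CCAAT, Rrm1 2 and Mcm10 3, with no E2F-type match in these windows. Tyms held neither motif, and Pole2 held 1 E2F-type match with no CCAAT.

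The nucleotide supply genes had the lowest median of the role groups with at least 3 genes, -0.80. Of the 5, 4 were lower by more than 1.5-fold, against 8.34% of all genes tested and 5.9% of the well-read genes. Rrm2, the small subunit of ribonucleotide reductase, had 2141 Control and 978 TSA reads, the order kept for all pairs of reads below. It fell to a fold of 0.452 (0.419 to 0.488), a log2 change of -1.14, and was the only member whose whole interval lay beyond 2-fold. Its partner Rrm1, the large subunit, had 2911 and 1688 reads, a fold of 0.574 (0.540 to 0.610). The fold of Rrm2 was 0.788 times that of Rrm1 (exact 95% interval 0.714 to 0.869), so the subunits differed by unequal amounts in these libraries. This and the 13 other ratios of folds below were chosen after the values were seen and rest on counting error alone.

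Tyms, thymidylate synthase, had 1086 and 598 reads, a fold of 0.545 (0.493 to 0.603). Tk1, the cytosolic thymidine kinase of S phase, had 1081 and 679 reads, a fold of 0.622 (0.564 to 0.685). Both enzymes make dTMP, by the de novo and the salvage route. Dut, the dUTPase that keeps uracil out of DNA and provides dUMP for thymidylate synthase, was lower by less, with 6020 and 5137 reads and a fold of 0.845 (0.814 to 0.877). Without these 5 genes, the median change of the other 45 was -0.269, and 43 of them were lower.

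**Figure D2:**
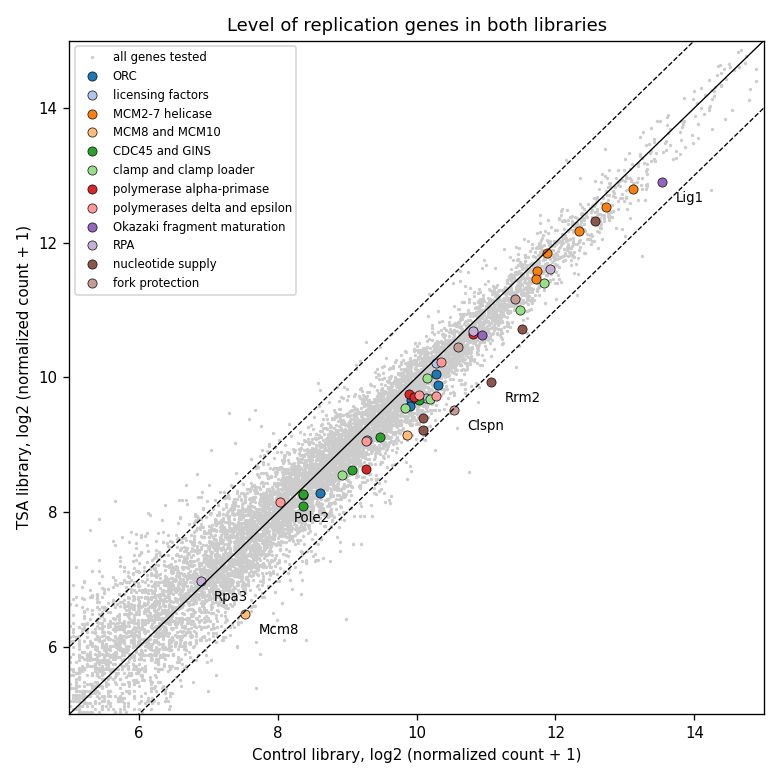
Level in the Control library (x axis) against the TSA library (y axis), both as log2 of the normalized count plus 1, for all genes tested (grey) and the 50 replication genes (coloured by role). The solid line marks equal levels and the dashed lines 2-fold, and 48 of the 50 genes lie below the solid line at all levels of expression.

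The 6 ORC genes were all lower, by 0.11 to 0.42 on the log2 scale. Orc2, a core subunit, had 1265 and 952 reads, the lowest fold of the complex at 0.745 (0.684 to 0.811). Orc1, the subunit that is made and destroyed with each cycle, had 388 and 311 reads, a fold of 0.793 (0.681 to 0.924). Orc6, which is needed for MCM loading, had 950 and 768 reads, a fold of 0.801 (0.727 to 0.881). The core subunits Orc3 and Orc4 were lower by less, with folds of 0.855 and 0.841. For Orc5, also a core subunit, the interval held 1, with 327 and 306 reads and a fold of 0.926 (0.790 to 1.09). The fold of Orc2 was 0.804 times that of Orc5 (0.671 to 0.964).

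The licensing factors differed among themselves. Cdc6, the ATPase that recruits the helicase to ORC, had 1117 and 834 reads, a fold of 0.739 (0.675 to 0.809). Cdt1, which brings the MCM ring, had 1235 and 1190 reads, a fold of 0.954 (0.880 to 1.03), and its interval held 1. The fold of Cdc6 was 0.775 times that of Cdt1 (0.686 to 0.875). Gmnn encodes geminin, the inhibitor of CDT1, and had 621 and 537 reads, a fold of 0.856 (0.761 to 0.963). The ratio of the folds of Cdc6 and Gmnn was 0.863 (0.744 to 1.002), which held 1.

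The MCM2-7 helicase genes were lower by small amounts, with a median change of -0.187 and 31230 against 27326 reads in all, a fold of 0.866 (0.852 to 0.881). Mcm7 was the lowest of the 6, from 8845 to 7136 reads, a fold of 0.799 (0.774 to 0.824). Mcm5 had 3367 and 2836 reads, a fold of 0.834 (0.793 to 0.877). These products are part of 1 ring with equal copies of each subunit. Mcm3 had a fold of 0.870, Mcm6 of 0.887 and Mcm4 of 0.904, each with the whole interval below 1. That of Mcm4 held 1 when scaled by total reads without Rn45s. Mcm2 stood at 3726 and 3714 reads, a fold of 0.987 (0.943 to 1.03). The fold of Mcm7 was 0.809 times that of Mcm2 (0.766 to 0.856). The direction of Mcm2 and of Cdt1 depended on the scaling: scaled by total reads, their log2 changes were 0.051 and 0.0022.

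Mcm8 and Mcm10 carry MCM names but are not subunits of that ring, and both were lower by more. Mcm8, a helicase that acts with MCM9 in homologous recombination, had the fewest reads of the 3 genes past 2-fold. It fell from 183 to 89 reads, a fold of 0.482 (0.370 to 0.624), with an interval that reaches changes under 2-fold, and its log2 change of -1.05 became -0.976 when scaled by total reads. Mcm10, a scaffold that helps activate the helicase, had 926 and 568 reads, a fold of 0.607 (0.546 to 0.675). Relative to the summed MCM2-7 genes, the fold of Mcm8 was 0.556 (0.426 to 0.720) and that of Mcm10 0.701 (0.630 to 0.780).

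CDC45 and the 4 GINS subunits complete the active helicase, and their genes had a median change of -0.349. Cdc45 had 532 and 394 reads, a fold of 0.734 (0.642 to 0.837). Gins2 had 1047 and 811 reads, a fold of 0.767 (0.699 to 0.841), and Gins4 had 705 and 559 reads, a fold of 0.785 (0.701 to 0.879). Both are subunits of the same 4-part complex as Gins3, which had 327 and 274 reads and a fold of 0.829 (0.704 to 0.977). Gins1 had 326 and 309 reads, a fold of 0.939 (0.801 to 1.100), and its interval held 1.

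All 6 genes of the clamp and its loader had intervals below 1 on the deposited scaling, against 28% of all genes tested and 36.5% of the well-read genes. Their median change was -0.399. When scaled by total reads, the interval of Rfc2 held 1, as did those of some members of other groups. Pcna, the ring-shaped clamp that tethers polymerases to DNA, had 3627 and 2724 reads, a fold of 0.744 (0.707 to 0.782). RFC opens and closes that ring on DNA. Rfc5 had 1166 and 822 reads, a fold of 0.698 (0.638 to 0.764), and Rfc1, the large subunit, had 2867 and 2058 reads, a fold of 0.711 (0.671 to 0.752). The other small subunits were closer to 1, with folds of 0.773 for Rfc4, 0.823 for Rfc3 and 0.894 (0.820 to 0.974) for Rfc2.

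In polymerase α-primase, the primase subunit Prim2 had the lowest fold. Prim2 had 614 and 402 reads, a fold of 0.648 (0.570 to 0.736). Prim1, the catalytic primase subunit, had 991 and 840 reads, a fold of 0.840 (0.765 to 0.921). The fold of Prim2 was 0.772 times that of Prim1 (0.659 to 0.905), although both belong to 1 heterodimer. The polymerase subunits Pola1 and Pola2 had folds of 0.891 (0.832 to 0.954) and 0.916 (0.835 to 1.01).

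The polymerases δ and ε showed a similar spread. Pold2, an accessory subunit of polymerase δ, had 1231 and 849 reads, a fold of 0.683 (0.625 to 0.746). The catalytic subunit Pold1 had 1302 and 1199 reads, a fold of 0.912 (0.842 to 0.987), and the ratio of their folds was 0.749 (0.665 to 0.844). Pold3, which links the polymerase to PCNA, had 1041 and 860 reads, a fold of 0.818 (0.747 to 0.896). For the leading-strand polymerase ε, the catalytic subunit Pole had 613 and 534 reads, a fold of 0.863 (0.767 to 0.970). Pole2, its second subunit, had 260 and 285 reads, a fold of 1.09 (0.914 to 1.29), the highest of all 50 genes, with an interval that held 1. The fold of Pole2 was 1.26 times that of Pole (1.02 to 1.55).

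Of the genes that finish Okazaki fragments, Lig1, the DNA ligase of the lagging strand, had the most reads of the set. It had 11843 and 7669 reads, a fold of 0.641 (0.623 to 0.660), which was lower by more than 1.5-fold as deposited, but not when scaled by total reads (log2 change -0.571 in place of -0.641). Fen1, the flap nuclease that acts just before it, had 1966 and 1590 reads, a fold of 0.801 (0.749 to 0.856). The fold of Lig1 was 0.801 times that of Fen1 (0.745 to 0.861).

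RPA, the trimer that coats single-stranded DNA, included the second gene with a higher value. Rpa2 had 3842 and 3125 reads, a fold of 0.805 (0.768 to 0.845), and Rpa1, the large subunit, had 1790 and 1660 reads, a fold of 0.918 (0.858 to 0.982). Rpa3, the smallest subunit, had 117 and 126 reads, a fold of 1.07 (0.823 to 1.38). With so few reads, a difference in Rpa3 within this interval could not be told from none. The fold of Rpa2 was 0.755 times that of Rpa3 (0.580 to 0.984).

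Among the fork protection genes, Clspn had the lowest fold. Clspn encodes claspin, the adaptor through which the stalled fork activates the checkpoint kinase CHK1. It fell from 1483 to 737 reads, a fold of 0.492 (0.450 to 0.538), an interval that also holds changes under 2-fold. Its log2 change of -1.02 became -0.952 when scaled by total reads and -0.98 by the upper quartile, which ends the call. Timeless and Tipin form the complex that keeps helicase and polymerase together. Timeless had 1537 and 1408 reads, a fold of 0.907 (0.843 to 0.976), and Tipin had 2731 and 2311 reads, a fold of 0.838 (0.792 to 0.886). The fold of Clspn was 0.543 times that of Timeless (0.483 to 0.609) and 0.587 times that of Tipin (0.528 to 0.653).

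Some of these reads may be shared with neighbouring genes, because the strand used in counting is not given in the sources used here. In GENCODE M21 (GRCm38, the mm10 build of the processing notes), 10 of the 50 genes have a gene on the opposite strand over their last 500 bases, where these libraries are read: Fen1, Gins2, Mcm7, Orc1, Orc2, Orc4, Rfc2, Rfc4, Rfc5 and Tk1. Cdt1 and Pole2 have a gene on the same strand there, and Pcna and Tyms have pseudogenes named after them. None of these is among the 3 genes past 2-fold, but Tk1 and Tyms are among the 9 lower by more than 1.5-fold. In this build Rrm2 lies at chr12:24708241-24714146, Mcm8 at chr2:132816141-132844197 and Clspn at chr4:126556935-126593903, all on the plus strand.

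RefSeq promoter windows were matched by symbol for 41 of the 50 genes, with 49 windows in all. Gins1, Gins2, Gins4, Gmnn, Mcm4, Pole, Prim2, Rfc2 and Tipin were not matched. An E2F-type match stood in a window of 17 of the 41 genes, or 41.5%, against 4.78% of 9196 tested genes with a window, 2.61% of all 27025 genes with a window and 2.26% of all 32851 windows. These 17 genes were Cdc6, Cdt1, Clspn, Gins3, Lig1, Mcm3, Mcm5, Mcm6, Mcm7, Mcm8, Orc1, Orc3, Pola1, Pold1, Pold3, Pole2 and Rfc3. Their 23 matches, of which 2 pairs overlapped on opposite strands and 1 overlapped a CCAAT, lay from 165 bases before to 39 bases after the start, 16 of them within 100 bases of it. CCAAT stood in a window of 25 genes, or 61.0%, against 43.1% of the tested genes and 41.1% of all genes with a window (37.4% of all windows). Related lists also held these motifs: the E2F-type match stood in 34.8% of 23 G1/S control genes, 16.7% of 42 other replication genes and 3.23% of 31 mitotic genes, and CCAAT in 56.5%, 50% and 71.0% of them.

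Genes with and without a match overlapped in their change. The 17 genes with an E2F-type match had a median change of -0.269, and the 24 without one a median of -0.345. Both groups spanned nearly the whole range, from -1.05 to 0.118 with the match and from -1.14 to 0.092 without it. The 25 genes with CCAAT had a median of -0.32 and the 16 without it -0.266, and the 3 genes past 2-fold all held CCAAT. These counts describe letters in a window and were not tested.

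**Figure D3:**
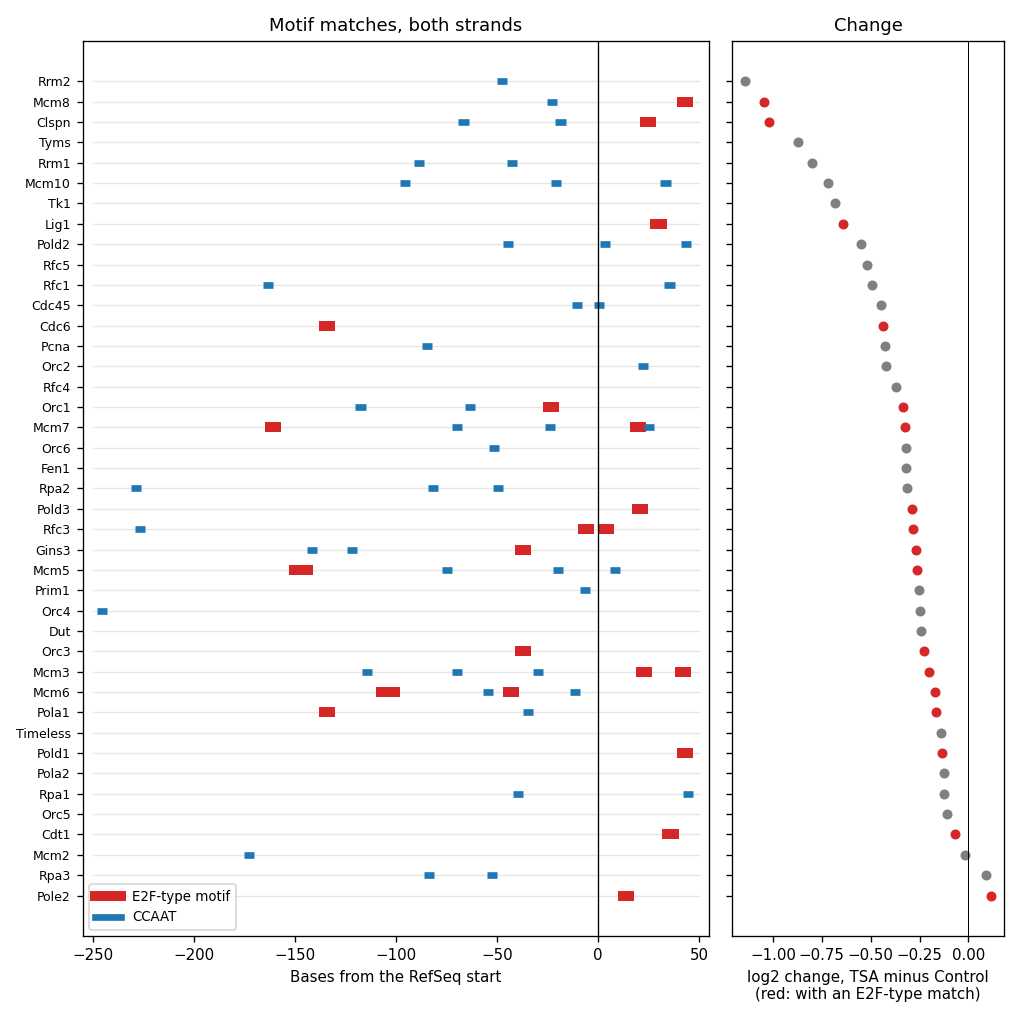
Left, E2F-type matches (red) and CCAAT (blue) in the promoter window of each of 41 replication genes, in bases from the RefSeq start, and right, the change of the same gene (log2, TSA minus Control; red with an E2F-type match). Genes are ordered from the lowest change, Rrm2, to the highest, Pole2, and red points occur along the whole order.

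Other genes of DNA replication were read from a list of 50, of which 49 were tested, since Pold4 had no read in either library. Of these 49, 36 (73.5%) were lower, against 48.6% of all genes tested and 57.1% of the well-read genes, with a median change of -0.307. The whole interval lay below 1 for 29 (59.2%), against 28% and 36.5%. Only 1 of the 49 was lower by more than 2-fold, near the 3.15% of all genes tested and 1.31% of the well-read genes. This was Rnaseh2b, a subunit of the enzyme that removes ribonucleotides from DNA. It fell from 677 to 309 reads, a log2 change of -1.14. Its partner subunits did not share that change, with log2 changes of 0.325 for Rnaseh2a, the catalytic subunit, and 0.113 for Rnaseh2c, both named after their values were seen. In 4 of the 49 genes the whole interval lay above 1, against 28.1% of all genes tested and 23.4% of the well-read genes. These were Samhd1, Rnaseh2a, Top2b and Ung, named after their values were seen. Samhd1, which degrades the dNTPs that ribonucleotide reductase makes, had 2582 and 3543 reads, a log2 change of 0.442. The other subunits of polymerase ε, also named after their values were seen, were lower than Pole2, with log2 changes of -0.915 for Pole3 and -0.324 for Pole4.

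Genes of neighbouring cell cycle steps were read the same way. Of 31 G1/S control genes, 30 were tested, with a median change of -0.332. Of these, 20 (66.7%) were lower, against 48.6% of all genes tested and 57.1% of the well-read genes. The whole interval lay below 1 for 18 (60%), against 28% of all genes tested and 36.5% of the well-read genes. It lay above 1 for 6 (Ccnd1, Ccnd2, Cdkn1b, Cdkn1c, Rbl2 and Tfdp2, named after their values were seen), against 28.1% and 23.4%. E2f1, an activating E2F factor, had 903 and 895 reads, a log2 change of -0.027. Ccne1 and Ccne2 encode cyclin E, the partner of CDK2 at the start of S phase. Ccne1 had 1014 and 638 reads, a log2 change of -0.681, while Ccne2 fell from 1882 to 797 reads, a change of -1.25, and E2f8, a repressive E2F factor, from 368 to 155 reads, a change of -1.26. The 35 mitotic genes in the table had a median change of -0.936, with 34 lower (97.1%, against 48.6% of all genes tested) and 16 lower by more than 2-fold (against 3.15% of all genes tested and 1.31% of the well-read genes), and included Espl1 (212 and 59 reads), Ube2c (584 and 184), Bub1 (252 and 84), Mki67 (1861 and 653) and Kif11 (475 and 171). Pttg1, which encodes securin, the inhibitor of the protease made from Espl1, was the mitotic gene with a higher value, with 705 and 1413 reads and a fold of 1.98 (1.81 to 2.18), and was named after its value was seen. Of the 30 G1/S genes, 2 were higher by more than 2-fold, against 11.5% of all genes tested and 1.48% of the well-read genes. These 2, Ccnd1 with 16 and 85 reads and Cdkn1c with 13 and 39, had few reads and were named after their values were seen. The difference between the replication set and the mitotic genes was not tested.

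**Figure D4:**
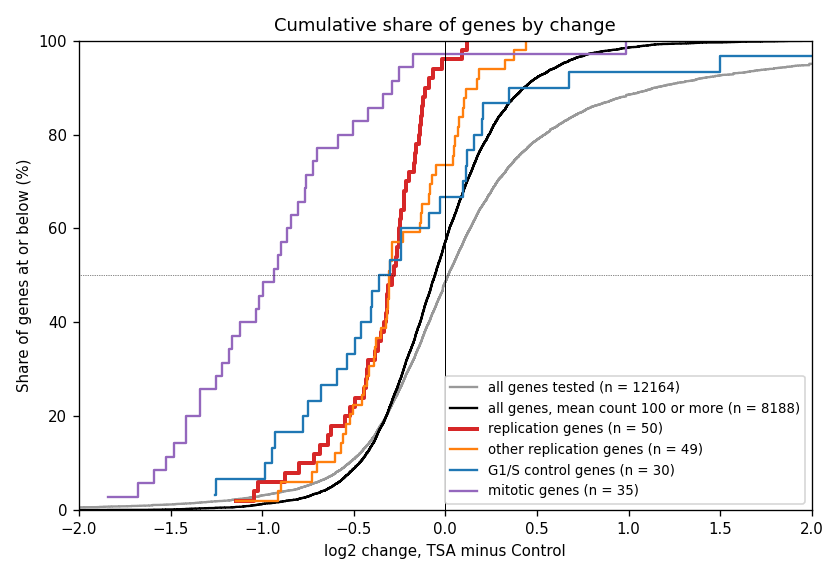
Cumulative share of genes (y axis, percent) at or below each change (x axis, log2, TSA minus Control) for the replication genes, 3 other lists, all genes tested and the well-read genes. The replication genes cross 50% at -0.285, close to the other replication genes at -0.307, while the mitotic genes cross it at -0.936 and all genes tested at 0.015.

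The labelled cell type was checked with 10 CD4 T cell markers, which summed to 27691 reads for Control and 28907 for TSA, none of them at 0. Single markers differed in both directions. The whole interval lay below 1 for 4 of the 10, against 28% of all genes tested and 36.5% of the well-read genes. It lay above 1 for 5, against 28.1% and 23.4%. Foxp3, the defining factor of Treg cells, had 1633 and 965 reads, a fold of 0.585 (0.540 to 0.634). Il2ra, the IL-2 receptor α chain, had 8851 and 7511 reads, and Thy1, a surface protein of T cells, had 2428 and 3847. These 3 were named after their values were seen. Of 30 markers of B cells, myeloid cells, CD8 and NK cells and erythroid cells, the reads summed to 256 and 285, or 23.6 and 27.3 CPM. Pax5, C1qa, Prf1, Klrb1c and Hba-a2 were among those at 0 in both libraries. The CD8 and NK markers held the largest part of the summed reads, 113 and 133, with Cd8b1 at 65 and 77. The myeloid markers held 84 and 74. The erythroid markers held 43 and 58 of these reads, and 1 of them, with 4 and 17 reads and a fold of 4.20 (1.37 to 17.2), was the marker of other cells whose interval excluded 1. The ribosomal RNA precursor Rn45s took 8.72% of the Control library and 9.63% of the other. Scaled by total reads, all values shifted up by 0.070 on the log2 scale, which left 46 of the 50 replication genes lower and 1, Rrm2, past 2-fold, with the whole interval below 1 for 35. The part of these differences in the results above was not tested.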

How the data were processed

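Total RNA from 1 Control and 1 TSA culture was made into QuantSeq libraries, which read the end of each transcript next to its poly(A) tail, with reads of 75 nt from 1 end on an Illumina NextSeq 500. The submitters' processing notes name Bowtie2, bedtools and mm10, while ExDEGA was used for the analysis. Versions, the annotation, the strand setting and the normalization method are not given in the sources used here. What the authors deposited for each gene is log2 of a normalized count plus 1. Undoing the logarithm gave steps of 1.005 per read (Control) and 0.995 (TSA), and 99.95% and 99.94% of the values up to 300 reads lay within 0.1 of a whole number. Above that, 3 decimals leave an uncertainty of 0.035%. The design foresaw no test, and none was made. Members, lists and motifs were chosen with earlier results of these data known. Genes outside the set were named by size (past 2-fold, mean normalized count of at least 100, at most 5 per list) or, for Mki67, E2f1 and Ccne1, by symbol. The others, also among the markers, were named after their values were seen. Depth limits single genes to a floor of 3 reads, 0.277 and 0.288 CPM. Scaling, pseudocount, filter, threshold and promoter window were varied. Recovery of reads, the 2-fold call, the intervals and the trimmed-mean scaling were tested on simulated data. Tables were handled with pandas 2.3.3 and numpy 2.4.6, intervals came from scipy 1.17.1 and plots from matplotlib 3.10.9 (Python 3.11.15).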

Additional observations from a re-analysis of the deposited data

How the results depend on the processing

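No paired analysis was possible because each condition held a single library, and none could be left out. The median change of the replication genes stayed negative under 5 scalings, pseudocounts of 0.1 and 5 and 3 filters, and 46 to 48 of the 50 genes stayed lower. Under the 5 scalings, the whole interval lay below 1 for 34 to 43 of them. Scaled by total reads, the intervals of Gins3, Gmnn, Pola1, Pold1, Pole, Rfc2, Rpa1 and Timeless came to hold 1. Without Rn45s, that of Mcm4 did so as well. The medians of the lists moved by more than the counting error of the list's own summed fold (from its exact interval) under 3 scalings (total reads, total reads without Rn45s and the upper quartile, in this order): to -0.215, -0.200 and -0.243 for the replication genes, -0.237, -0.223 and -0.265 for the other replication genes, -0.866, -0.852 and -0.894 for the mitotic genes and -0.262, -0.247 and -0.289 for the G1/S control genes. All 50 passed each filter, so the filters changed nothing for them. The number past 2-fold was 1 (Rrm2) when scaled by total reads, with or without Rn45s, and 1 when the whole 95% interval had to pass 2-fold. By the upper quartile it was 2 (Mcm8 and Rrm2), and with a threshold of 1.5-fold it was 9. Among the 50 genes, changes of direction were limited to Cdt1 (0.0022 by total reads, 0.017 without Rn45s) and Mcm2 (0.051 by total reads, 0.066 without Rn45s, 0.024 by the upper quartile). Small changes outside the set, such as that of E2f1 (-0.027), also turned when scaled by total reads. These follow from the scaling itself, which adds the same amount to every gene. Under the 5 scalings and 2 pseudocounts, 327 of 350 single-gene values kept their direction and stayed within the gene's own interval. A further 18 kept their direction but moved beyond it, and 5 reversed. Of the reversed values, those of Cdt1 and that of Mcm2 by the upper quartile lay within the gene's own interval. Of 84 role-group medians, 23 moved by more than the counting error of their own summed fold and none reversed, with MCM2-7 at -0.117 by total reads. In a window from 150 bases before the start, the E2F-type share of the members stayed at 41.5% and that of the tested genes went from 4.78% to 3.49%, while the CCAAT share of the members went from 61.0% to 53.7%. Intervals do not cover differences between cultures.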
